A study of Mus musculus with 69 samples.

Results

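Wild-type (WT) cells of mosaic gastruloids were compared between 144 h and 120 h after aggregation, with the clone as a covariate and over all genes. The comparison drew on 12 of the 69 libraries of the series, 3 from each of WT–mCherry and WT–emiRFP cells at each of the 2 times. Of 55367 gene symbols counted, 42280 had at least 1 read in the series and 19146 passed the filter on low counts and were tested. All 12 libraries came from gastruloids of E14tg2A mouse embryonic stem cells. Gastruloids are aggregates that elongate and form parts of the embryonic body plan after a pulse of CHIR99021, an activator of Wnt signalling, on the third day. WT–mCherry cells carry an H2B–mCherry nuclear label and WT–emiRFP cells, a sister clone, an H2B–emiRFP670 label, and the WT+WT gastruloids were seeded with 150 cells of each. Both populations were sorted by fluorescence from the same gastruloids, in 3 temporally separate experiments, and the sorted cells were not re-examined for purity. Each label stands for 1 clone, so that clone and label cannot be told apart. The comparison groups were WT–mCherry cells of WT+p53KO gastruloids, seeded with 150 WT–mCherry and 25 p53KO–emiRFP cells, and the p53KO–emiRFP cells themselves, which derive from the WT–emiRFP clone by a frameshift in the tumour suppressor gene Trp53.

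In the elongating embryo, bipotent progenitors of the caudal epiblast and tail bud keep up expression of T, Cdx and Wnt and FGF ligands while their descendants leave towards the spinal cord or the presomitic mesoderm. The presomitic mesoderm is cut into somites by oscillating Notch and Wnt targets, and somite cells then form the precursors of cartilage, tendon, dermis and skeletal muscle. Neural progenitors of the spinal cord take dorsoventral identities and later start neurogenesis under proneural transcription factors. Hox genes are switched on in the order of their position in each cluster, from paralogue 1 in the anterior to paralogue 13 in the tail, and record the axial level of a cell.

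The 12 libraries held between 47397767 and 63367172 counted reads (median 53765358), and mitochondrial genes took between 0.639% and 1.49% of them. On the log2 scale, the median standard deviation of a gene among the 3 replicates of a group was between 0.0941 and 0.109. H2bc14 and H2bc7, histone genes with reads almost only in the H2B–emiRFP670 population, were present in WT–mCherry libraries at no more than 2.09% of their mean in WT–emiRFP libraries of the same time. The first principal component held 58.7% of the variance and put every 120 h library below 0 and every 144 h library above 0. The second, with 21.8%, separated the clones at 144 h, where WT–mCherry libraries lay between 16.4 and 33.3 and WT–emiRFP libraries between -19.3 and -10.8. Replicate 2 was the nearest of the 120 h libraries to the 144 h libraries in both clones, at -23.8 in WT–mCherry and -14.8 in WT–emiRFP cells on the first component. The 13 genes listed as checks of RNA quality and of the sort, 9 of them mitochondrial, had log2 fold changes between -0.35 and 0.15 from 120 h to 144 h, and none passed the test, although 3 were lower with the replicate number as a block, a fit that called 50.7% of all tested genes, 26.9% higher and 23.8% lower.

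**Figure D1:**
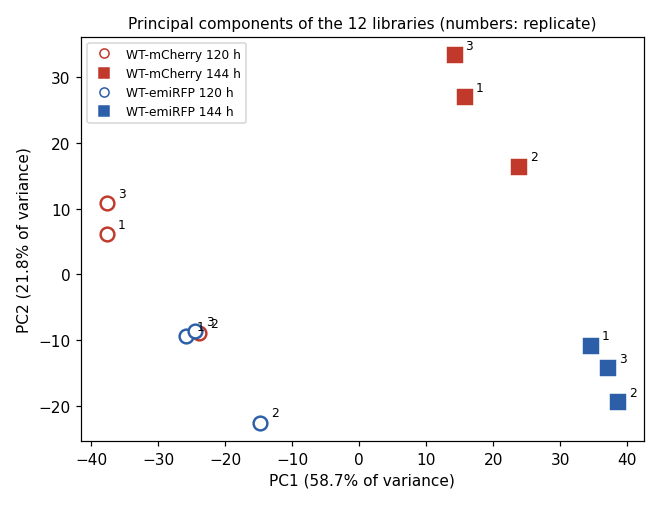
Scores of the 12 libraries on the first (x axis, 58.7% of variance) and second (y axis, 21.8%) principal component of log2 normalised counts, with open circles for 120 h, filled squares for 144 h, red for WT–mCherry, blue for WT–emiRFP and the replicate number beside each point. The times separate along the x axis and the clones separate along the y axis at 144 h.

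Between 120 h and 144 h, 20 of 21 caudal epiblast genes and 14 of 16 presomitic genes fell, and 20 of 30 neurogenesis genes rose. By edgeR's quasi-likelihood test with Benjamini-Hochberg adjustment, 8263 of 19146 genes changed at an adjusted p under 0.05, which is 43.2% of all genes tested, with 4476 higher (23.4%) and 3787 lower (19.8%) at 144 h. Without replicate 1, which removes 4 libraries, 4874 genes passed. The 2 clones of a replicate came from the same gastruloids, and the test counts them as separate libraries. With both clones summed, 3 samples against 3, 6179 of 20499 tested genes passed, 3312 higher and 2867 lower. The median log2 fold change over all tested genes was 0.01, and all fold changes below are 144 h against 120 h on the log2 scale, with the standard error (SE) of the fit. A change of at least 2-fold was found for 1402 genes (7.32%), 938 higher and 464 lower, and a change of at least 8-fold was a fall for 57 genes and a rise for 30. The direction of the change was shared by all 6 pairs of libraries of the same clone and replicate number for 7076 of the 8263 genes, and the ranges of the 6 libraries at each time did not overlap for 3085 genes (16.1% of those tested). Since the libraries are bulk RNA, fewer cells of a type and less RNA per cell cannot be told apart for any of these genes.

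Among genes with log2 CPM (reads scaled to library size) of 2 or more and a shared direction in all 6 pairs, C1qtnf3 and Chl1 led the 12 largest rises. C1qtnf3, which encodes a secreted C1q/TNF-family protein, ranged from 2.81 to 9.79 (median 4.03) at 120 h and from 114 to 1022 (median 308) at 144 h in normalised counts, which are reads divided by the size factor of the library (log2 fold change 6.34 ± 0.44, adjusted p = 1.23e-07). Chl1, a neural cell adhesion molecule of the L1 family, ranged from 11.3 to 26.2 (median 20.5) at 120 h and from 148 to 729 (median 371) at 144 h (log2 fold change 4.18 ± 0.19, adjusted p = 1.87e-09). The 2 times did not overlap for either gene, and for Chl1 the WT–mCherry libraries at 144 h all lay above the WT–emiRFP ones. Dbx1, a marker of interneuron progenitors in the middle of the spinal cord, and Col3a1, a fibrillar collagen chain, rose by 4.13 ± 0.31 and 3.79 ± 0.21. The neural POU factors Pou3f3 and Pou3f2 rose by 3.40 ± 0.23 and 2.90 ± 0.22, the Slit receptor Robo2 by 2.83 ± 0.22, the endothelin receptor Ednrb of neural crest and radial glia by 2.88 ± 0.18, and the secreted semaphorin Sema3d by 2.58 ± 0.35. Megf10, an engulfment receptor, rose by 3.62 ± 0.30, the neurotrophic factor Ndnf by 3.13 ± 0.22 and the simple-epithelium keratin Krt7 by 2.55 ± 0.18.

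The 12 largest falls under the same rule were those of Nkx1-2, Rspo3, Cdx2, T, Sp5, Fgf18, Evx1, Cdx4 and Tbx6, together with Acta2 (-3.51 ± 0.26), which encodes smooth muscle actin, Kif26b (-3.22 ± 0.20), an atypical kinesin, and Stum (-3.41 ± 0.19). For all 24 genes the ranges of the 2 times did not overlap. In the lists below, members named to complete a count of 5 or fewer were chosen after their values were seen. Every count of list members is to be read beside the 23.4% of all tested genes that rose and the 19.8% that fell.

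**Figure D2:**
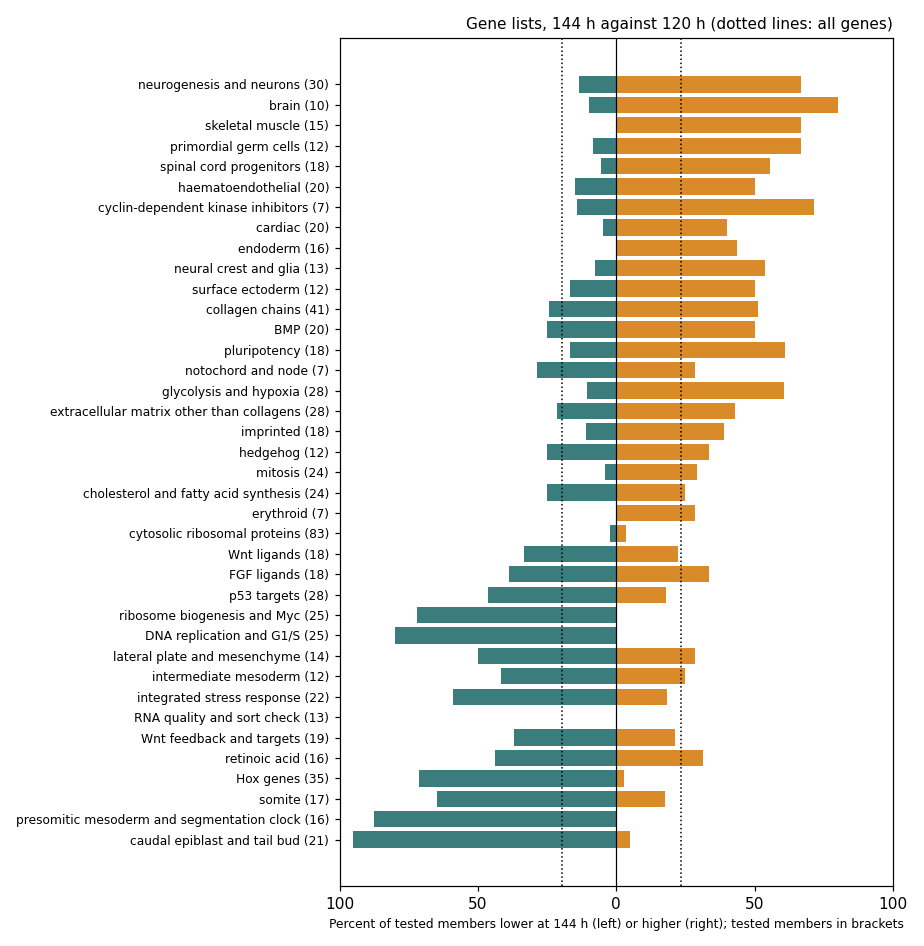
Percent of the tested members of each gene list that were lower (left, green) or higher (right, orange) at 144 h than at 120 h at an adjusted p under 0.05, with lists ordered by their median log2 fold change and the number of tested members in brackets. Dotted lines give the shares among all tested genes, 19.8% lower and 23.4% higher, and the caudal epiblast, presomitic, somite and Hox lists lie at the bottom with most members lower.

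The caudal epiblast programme fell almost as a whole, since 20 of its 21 listed genes were lower at 144 h and 1 was higher (median log2 fold change -2.14). The homeobox gene Nkx1-2, a marker of the preneural caudal epiblast, ranged from 3000.5 to 5088 (median 4094) at 120 h and from 134 to 185 (median 144) at 144 h (log2 fold change -4.75 ± 0.09, adjusted p = 2.68e-13). Cdx2, which drives axial elongation, ranged from 3643 to 5949 (median 4845) at 120 h and from 216 to 361 (median 296) at 144 h (log2 fold change -4.09 ± 0.08, adjusted p = 4.13e-13), and its paralogues Cdx4 and Cdx1 fell by 3.42 and 3.07 on the log2 scale. T, or Brachyury, the factor that defines the mesoderm-forming progenitor, ranged from 1442 to 2420.4 (median 1919) at 120 h and from 99.1 to 252 (median 156) at 144 h (log2 fold change -3.57 ± 0.13, adjusted p = 1.94e-10). Every library at 144 h lay below every library at 120 h for these 3 genes.

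Several signals of this region fell too. Wnt5a, a non-canonical Wnt ligand of the tail bud, ranged from 2434 to 4321 (median 3359.8) at 120 h and from 211 to 674 (median 391) at 144 h (log2 fold change -3.11 ± 0.18, adjusted p = 1.58e-08). Wnt3a, the canonical ligand of the same cells, ranged from 319.8 to 546 (median 396) at 120 h and from 65.9 to 118 (median 91.8) at 144 h (log2 fold change -2.14 ± 0.14, adjusted p = 6.9e-08). Fgf8 ranged from 639 to 1323 (median 899.8) at 120 h and from 134 to 202 (median 143) at 144 h (log2 fold change -2.54 ± 0.11, adjusted p = 1.97e-09), Fgf17 fell by 1.71 and Fgf18, which is outside the caudal list, by 3.47 on the log2 scale. Both Sp5, a Wnt target, and the homeobox gene Evx1 fell, with changes of -3.48 ± 0.11 and -3.45 ± 0.19. Cyp26a1, which clears retinoic acid from the tail, changed by -1.53 ± 0.17. Fgf4, another ligand on the list, went the other way and ranged from 1727 to 2454 (median 2039) at 120 h and from 2774 to 5404 (median 3642) at 144 h (log2 fold change 0.85 ± 0.10, adjusted p = 1.12e-05), with no overlap between the times. Fgf4 is also expressed by pluripotent stem cells, whose list is described further on.

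The promoters of 3 genes that fell are printed because Sp5, T and Msgn1 are textbook Wnt targets, each as the 250 bases before the annotated RefSeq start on GRCm38.p6, in the direction of transcription, with the TCF/LEF letters CTTTGA (or TCAAAG, the same motif on the other strand) in capitals. Sp5 lies at chr2:70474673-70474922 (+), T at chr17:8434173-8434422 (+) and Msgn1 at chr12:11208949-11209198 (-).
Sp5: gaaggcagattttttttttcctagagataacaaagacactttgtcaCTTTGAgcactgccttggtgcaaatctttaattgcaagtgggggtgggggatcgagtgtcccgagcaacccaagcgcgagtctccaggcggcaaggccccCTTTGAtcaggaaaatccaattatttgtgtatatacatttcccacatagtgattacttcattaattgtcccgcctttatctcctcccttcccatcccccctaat
T: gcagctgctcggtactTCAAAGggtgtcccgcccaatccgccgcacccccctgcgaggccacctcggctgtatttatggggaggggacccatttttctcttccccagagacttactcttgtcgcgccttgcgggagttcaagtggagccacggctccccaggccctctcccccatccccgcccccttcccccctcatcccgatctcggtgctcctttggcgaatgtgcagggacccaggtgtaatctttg
Msgn1: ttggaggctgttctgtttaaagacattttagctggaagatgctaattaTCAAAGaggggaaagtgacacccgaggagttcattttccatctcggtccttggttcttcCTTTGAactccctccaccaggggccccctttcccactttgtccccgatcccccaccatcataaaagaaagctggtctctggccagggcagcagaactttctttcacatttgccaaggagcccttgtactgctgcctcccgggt
Sp5 holds 2 matches, at 104 and 204 bases before the start, T holds 1 at 234 bases, and Msgn1 holds 2 at 143 and 202 bases. Of the 37 genes on the caudal epiblast and presomitic lists, 32 had a promoter sequence and 9 of these (28.1%) held the letters on either strand, against 1719 of 13085 promoters of all tested genes (13.1%) and 1 of 22 on the neurogenesis list (4.54%). A match describes the letters in this window and is no evidence of binding.

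Genes of the presomitic mesoderm and the segmentation clock fell to near absence in several cases. Of 16 listed genes, 14 fell, none rose, and the median log2 fold change was -1.89. Hes7, the oscillating Notch target at the core of the clock, ranged from 257 to 519 (median 378) at 120 h and from 6.09 to 13.3 (median 7.39) at 144 h (log2 fold change -5.54 ± 0.17, adjusted p = 6.26e-11). Ripply2, which sets the somite boundary, ranged from 79.5 to 212 (median 135) at 120 h and from 0 to 3.54 (median 1.03) at 144 h (log2 fold change -6.65 ± 0.38, adjusted p = 1.58e-08). Msgn1, a master factor of the presomitic mesoderm, ranged from 52.7 to 205 (median 97.4) at 120 h and from 1.55 to 5.23 (median 4.23) at 144 h (log2 fold change -4.74 ± 0.33, adjusted p = 1.23e-07). At 144 h the 6 libraries together held 54 reads of Hes7, 8 of Ripply2 and 24 of Msgn1, so that their fold changes depend on few reads. Tbx6, which holds cells in the mesodermal path, ranged from 378 to 879 (median 594) at 120 h and from 40.2 to 96.2 (median 51.4) at 144 h (log2 fold change -3.34 ± 0.24, adjusted p = 1.64e-07). Rspo3, a secreted enhancer of Wnt signalling, changed by -4.30 ± 0.17. The 2 times did not overlap for any of these 5 genes. Between 96 h and 120 h, a comparison that shares the 120 h libraries, the median change of the same list was -2.04.

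**Figure D3:**
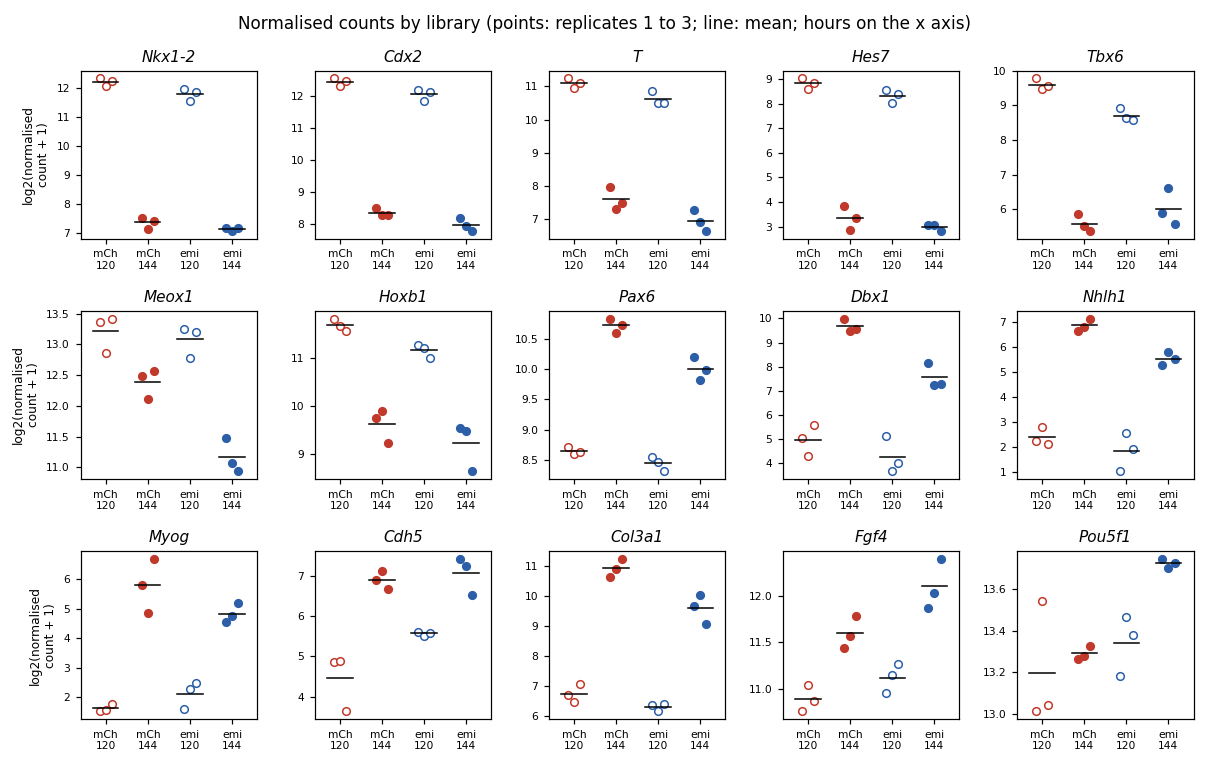
Log2 of the normalised count plus 1 in each of the 12 libraries for 15 genes, with WT–mCherry in red, WT–emiRFP in blue, 120 h as open points, 144 h as filled points and a line at the mean of 3 replicates, and each panel has its own y axis. Nkx1-2, Cdx2, T, Hes7 and Tbx6 are lower at 144 h in every library, while Dbx1, Nhlh1, Myog and Col3a1 are higher in every library.

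Of 17 somite genes, 11 fell and 3, Pax1, Pax9 and Nkx3-2, rose (median log2 fold change -1.37). The forkhead factors Foxc2 and Foxc1, which pattern the forming somite, changed by -3.09 ± 0.20 and -2.28 ± 0.20, and Tbx18, a gene of the anterior part of the somite, by -2.29 ± 0.23. Meox1, a factor of the whole somite, had normalised counts of 10572, 7396 and 10964 at 120 h and 5736, 4436 and 6038 at 144 h in WT–mCherry cells. In WT–emiRFP cells the counts were 9789, 7067 and 9455 at 120 h and 2866, 2142 and 1960.5 at 144 h (log2 fold change -1.37 ± 0.19, adjusted p = 7.18e-05). The times did not overlap, and at 144 h the 3 WT–emiRFP libraries lay below the 3 WT–mCherry libraries. Pax1, a factor of the sclerotome, ranged from 68.2 to 231 (median 92.2) at 120 h and from 256 to 1268 (median 472) at 144 h (log2 fold change 2.15 ± 0.33, adjusted p = 0.00013). By clone, where 24.1% of all tested genes changed in WT–mCherry and 34.1% in WT–emiRFP cells, 5 listed genes were higher and 10 lower in WT–mCherry cells (median list change -0.84) and 1 higher and 12 lower in WT–emiRFP cells (median -1.86). From 96 h to 120 h the median change of the list was 2.95.

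Of 19 skeletal muscle genes listed, 15 were tested, and of these 10 were higher and none lower (median log2 fold change 0.72), several of them from low levels. Myf5, a factor of muscle precursors on the list, did not pass (-0.42 ± 0.35, adjusted p = 0.359). Myog, the factor that commits myoblasts to differentiate, ranged from 1.87 to 4.62 (median 2.25) at 120 h and from 22.4 to 103 (median 31.8) at 144 h (log2 fold change 3.90 ± 0.44, adjusted p = 8.99e-06), on 18 reads in all at 120 h and 289 at 144 h. Tnnt3, a fast skeletal troponin, ranged from 91.1 to 148 (median 123) at 120 h and from 436 to 526 (median 482) at 144 h (log2 fold change 1.97 ± 0.10, adjusted p = 7.88e-09). Lbx1, a factor of migrating limb muscle precursors and of dorsal interneurons, ranged from 17.8 to 42.6 (median 28.8) at 120 h and from 75.6 to 138 (median 99.1) at 144 h (log2 fold change 1.81 ± 0.22, adjusted p = 2.03e-05). None of these 3 genes overlapped between the times. The muscle cadherin Cdh15 and the transcription factor Mef2c changed by 0.97 ± 0.13 and 0.99 ± 0.17.

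Of 35 Hox genes tested, 25 fell and 1 rose (median log2 fold change -0.91). All 12 genes of paralogues 1 to 4 fell (median -1.29), as did 13 of the 15 genes of paralogues 5 to 9 (median -0.87), whereas of the 8 genes of paralogues 10 to 13 none fell and 1, Hoxd13, rose (median 0.15). The last group was scarce, with medians under 50 normalised counts at both times for all of its genes but Hoxa10 and Hoxc10. Hoxd13 itself ranged from 15.8 to 22.0 (median 19.5) at 120 h and from 17.5 to 48.1 (median 32.4) at 144 h (log2 fold change 0.80 ± 0.22, adjusted p = 0.00926), with overlapping times, and its adjusted p was 0.0723 without replicate 1 and 0.126 without replicate 2.

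The largest fall was that of Hoxd1, which ranged from 309.7 to 578 (median 461) at 120 h and from 28.7 to 74.3 (median 52.4) at 144 h (log2 fold change -3.11 ± 0.14, adjusted p = 2.75e-09). Hoxb1 ranged from 2066 to 3646 (median 2779) at 120 h and from 395 to 946 (median 726) at 144 h (log2 fold change -1.98 ± 0.14, adjusted p = 1.32e-07). Neither of these paralogue 1 genes, which are active early in the caudal epiblast, overlapped between the times. Of the middle paralogues, Hoxa7 changed by -2.08 ± 0.14 and Hoxc8 by -1.60 ± 0.17, while Hoxb9, the last Hoxb gene before the gap to Hoxb13, had 6424, 4871 and 6056 at 120 h and 5365, 4997 and 4590.1 at 144 h in WT–mCherry cells. In WT–emiRFP cells the counts were 4744, 3712 and 3929.5 at 120 h and 2462, 1631 and 1483 at 144 h. Hoxb9 fell by 0.67 over both clones, with a change of -0.21 ± 0.16 in WT–mCherry cells and -1.15 ± 0.16 in WT–emiRFP cells. Hoxc5 passed the test (log2 fold change -0.60 ± 0.19, adjusted p = 0.0202) but not without WT–emiRFP replicate 2 or 3 at 144 h, where its adjusted p was 0.0515 and 0.0512, nor without replicate 1 or 3 in every group, where it was 0.0697 and 0.0985. In WT–mCherry libraries fitted alone Hoxc5 had -0.21 (adjusted p = 0.556). Hoxc9 did not pass over both clones (log2 fold change -0.05 ± 0.17, edgeR adjusted p = 0.85) and passed in opposite directions in each clone fitted alone, with 0.38 (edgeR adjusted p = 0.0441) in WT–mCherry and -0.50 (edgeR adjusted p = 0.0418) in WT–emiRFP libraries. Over the 35 genes, the median change was -0.57 in WT–mCherry cells, with 18 falls and no rise, and -1.28 in WT–emiRFP cells, with 27 falls and no rise. Among all tested genes 9.91% fell and 14.2% rose in WT–mCherry cells, and 15.8% fell and 18.3% rose in WT–emiRFP cells. No Hox gene passed the edgeR test of a difference between the clones, against 0.0783% of all genes, although 17 of 35 had an unadjusted p under 0.05. When clones of the same gastruloids were kept as blocks, 25 Hox genes passed, against 9.55% of all genes, all with the lower change in WT–emiRFP cells.

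**Figure D4:**
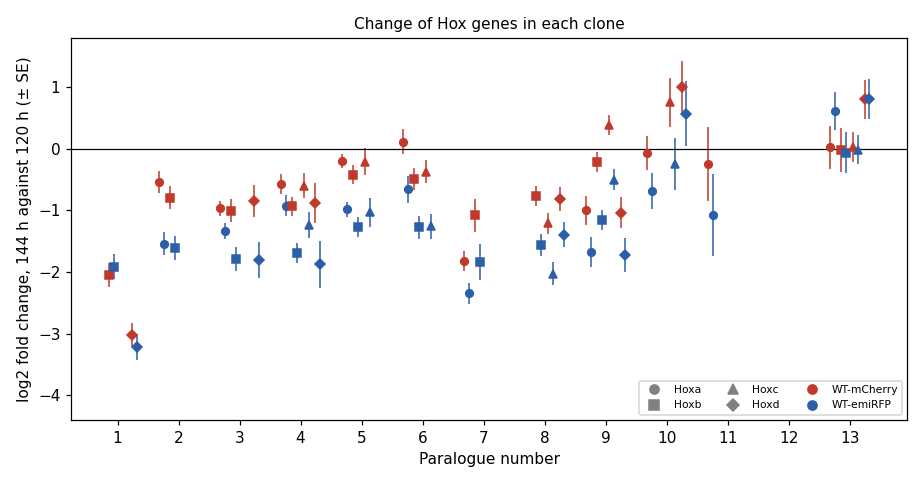
Log2 fold change of Hox genes from 120 h to 144 h (y axis, bars: SE) against the paralogue number (x axis), with the marker shape giving the cluster, red for WT–mCherry and blue for WT–emiRFP cells. Paralogues 1 to 4 lie below 0 in both clones, blue points lie below red ones for most of paralogues 2 to 9, and paralogues 10 to 13 scatter around 0.

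Of 18 spinal cord progenitor genes, 10 rose and 1 fell (median log2 fold change 0.56). Dbx1 had normalised counts of 31.8, 18.8 and 46.5 at 120 h and 1019, 722 and 759 at 144 h in WT–mCherry cells. WT–emiRFP cells had 33.9, 11.6 and 14.8 at 120 h and 287, 152 and 155 at 144 h (log2 fold change 4.13 ± 0.31, adjusted p = 2.53e-07), and all 144 h libraries lay above all 120 h libraries. Pax6, which patterns ventral and intermediate progenitors, ranged from 317 to 418 (median 379) at 120 h and from 906 to 1828 (median 1365) at 144 h (log2 fold change 1.83 ± 0.10, adjusted p = 1.41e-08), also without overlap. Olig2, which defines motor neuron progenitors, ranged from 12.9 to 27.7 (median 20.2) at 120 h and from 26.1 to 158 (median 76.6) at 144 h (log2 fold change 1.90 ± 0.35, adjusted p = 0.000568), and its times overlapped. Fabp7, a fatty acid binding protein of radial glia, changed by 2.17 ± 0.20. The pan-neural factor Sox2, which pluripotent cells share, ranged from 10604 to 13153 (median 11506) at 120 h and from 13846 to 17512 (median 15214) at 144 h (log2 fold change 0.40 ± 0.06, adjusted p = 5.94e-05). Prom1, a membrane protein of neuroepithelial cells, was the gene that fell (-0.51 ± 0.11). In WT–mCherry cells 10 of these genes rose and none fell, against 14.2% and 9.91% of all tested genes. In WT–emiRFP cells 7 rose and 6 fell, against 18.3% and 15.8%.

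Of 30 neurogenesis genes 20 were higher and 4, Ebf1, Ebf3, Gap43 and Mnx1, lower at 144 h (median log2 fold change 1.12). Neurog1, a proneural factor of sensory and spinal neurons, ranged from 1.03 to 10.2 (median 3.92) at 120 h and from 46.0 to 207 (median 95.9) at 144 h (log2 fold change 4.42 ± 0.33, adjusted p = 2.17e-07). Insm1, a factor of newly born neurons, ranged from 13.1 to 27.7 (median 17.4) at 120 h and from 53.3 to 133 (median 87.3) at 144 h (log2 fold change 2.23 ± 0.22, adjusted p = 2.67e-06). Tubb3, the neuronal tubulin, ranged from 734 to 1151 (median 930.4) at 120 h and from 1613 to 2374 (median 1994) at 144 h (log2 fold change 1.07 ± 0.07, adjusted p = 4.6e-08). None of the 3 overlapped between the times, although Tubb3 was already present at 120 h. Further members, singled out after their values were seen, came up from a few reads. Neurod4, a factor of differentiating neurons, had 2 reads over the 6 libraries at 120 h and 453 at 144 h, a ratio of 221 after scaling (95% counting interval 60.7 to 1827, which covers counting error only). Nhlh1, a bHLH factor of cells leaving the cycle, had 23 and 532 reads, and Dcx, which binds microtubules in migrating neurons, 25 and 319. The motor neuron gene Mnx1, also active in the tail bud and notochord, changed by -1.66 ± 0.15. The promoter of Nhlh1 at chr1:172057597-172057846 (-, GRCm38.p6, RefSeq) is printed as an example of a gene that proneural factors are known to act on, with the E-box letters CAGATG in capitals.
Nhlh1: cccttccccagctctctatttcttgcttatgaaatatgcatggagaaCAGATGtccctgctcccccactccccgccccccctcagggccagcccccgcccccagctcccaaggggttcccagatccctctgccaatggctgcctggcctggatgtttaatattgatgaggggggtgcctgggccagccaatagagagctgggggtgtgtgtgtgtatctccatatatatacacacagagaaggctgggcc
The match lies 203 bases before the start. The letters CAGCTG or CAGATG, on either strand, were found in 7 of 22 promoters of the neurogenesis list (31.8%), in 12 of 32 of the caudal epiblast and presomitic lists (37.5%) and in 3263 of 13085 of all tested genes (24.9%).

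Of 13 neural crest and glia genes, 7 rose and 1, the myelin gene Pmp22, fell (median log2 fold change 0.39). Tfap2b, a factor of the crest, of dorsal interneurons and of ectoderm, ranged from 3.08 to 7.91 (median 5.66) at 120 h and from 105 to 342 (median 216) at 144 h (log2 fold change 5.24 ± 0.20, adjusted p = 3.18e-10). Sox9, a factor of crest, glia and cartilage, ranged from 172 to 256 (median 218) at 120 h and from 461 to 1399 (median 881) at 144 h (log2 fold change 2.00 ± 0.16, adjusted p = 4e-07). Both were without overlap, while Sox10, the defining factor of migrating crest, ranged from 13.1 to 42.6 (median 35.9) at 120 h and from 18.5 to 45.7 (median 33.5) at 144 h and did not pass the test (log2 fold change 0.10 ± 0.24, adjusted p = 0.764). Of 10 brain genes, 8 rose and 1, Gbx2, fell (median log2 fold change 0.93). Otx2, the fore- and midbrain factor that is also expressed in primed pluripotency, ranged from 394 to 632 (median 519.5) at 120 h and from 639.7 to 1237 (median 839) at 144 h (log2 fold change 0.72 ± 0.07, adjusted p = 3.6e-06). En1, a midbrain gene that spinal interneurons and dermomyotome share, ranged from 19.7 to 25.9 (median 22.0) at 120 h and from 42.9 to 159.7 (median 72.1) at 144 h (log2 fold change 1.91 ± 0.26, adjusted p = 4.46e-05). Gbx2, a hindbrain gene that the caudal epiblast also expresses, ranged from 1279 to 1721 (median 1467) at 120 h and from 312 to 462 (median 412) at 144 h (log2 fold change -1.93 ± 0.06, adjusted p = 9.81e-11). For these 3 genes the times did not overlap.

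Of 20 haematoendothelial genes 10 were higher and 3, Lmo2, Tal1 and Runx1, lower (median log2 fold change 0.52). Cdh5, the cadherin of endothelial junctions, ranged from 11.4 to 48.2 (median 36.6) at 120 h and from 91.3 to 172 (median 129) at 144 h (log2 fold change 1.95 ± 0.23, adjusted p = 1.41e-05). Cldn5, a tight junction claudin of vessels, ranged from 88.9 to 176 (median 116) at 120 h and from 246 to 357 (median 335) at 144 h (log2 fold change 1.41 ± 0.14, adjusted p = 3.74e-06). The sialomucin Emcn and the receptor Tie1 changed by 1.74 ± 0.23 and 1.42 ± 0.15, and the times overlapped for none of the 4. Lmo2, a cofactor of haemangioblasts, ranged from 503 to 809 (median 698) at 120 h and from 203 to 335 (median 277) at 144 h (log2 fold change -1.31 ± 0.14, adjusted p = 4.67e-06). Pecam1, an endothelial adhesion molecule that stem cells also express, ranged from 2596 to 3979 (median 3443) at 120 h and from 3928 to 6219.7 (median 5183) at 144 h (log2 fold change 0.62 ± 0.07, adjusted p = 8.96e-06). The embryonic globin Hbb-bh1 had no read at 120 h and 47 at 144 h over 6 libraries each, and the leukocyte gene Ptprc had 1 and 6, and neither was tested. Of 7 other erythroid genes none fell, and Gata1 rose. Of 3 white cell genes, Spi1 and Laptm5 rose (0.82 ± 0.08 for Laptm5).

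Other mesoderm moved in both directions. Of 14 lateral plate and mesenchyme genes, 4, Prrx1, Tbx4, Postn and Dcn, rose and 7 fell (median log2 fold change -0.21). Foxf1, the defining factor of splanchnic mesoderm, ranged from 90.3 to 124 (median 107) at 120 h and from 12.2 to 44.3 (median 29.6) at 144 h (log2 fold change -1.87 ± 0.23, adjusted p = 2.07e-05), without overlap. The mesenchymal homeobox genes Prrx2 and Prrx1 changed by -1.72 ± 0.16 and 1.04 ± 0.27, and Prrx1 rose by 1.69 ± 0.28 in WT–mCherry cells and had 0.31 ± 0.29 in WT–emiRFP cells. The difference between the clones for Prrx1 had an adjusted p of 0.164. Of 12 intermediate mesoderm genes, 3, Osr2, Pax8 and Gata3, rose and 5, Osr1, Pax2, Lhx1, Emx2 and Eya1, fell (median log2 fold change -0.23). Lhx1 ranged from 276 to 416 (median 379) at 120 h and from 23.5 to 57.5 (median 39.9) at 144 h (log2 fold change -3.12 ± 0.19, adjusted p = 4.07e-08), also without overlap. Of 20 cardiac genes, 8 rose and 1, the slow troponin Tnni1, fell (median log2 fold change 0.51), most of them at low levels. The 8 include Gata4 (0.81 ± 0.28, adjusted p = 0.0286), which did not pass in 6 of 12 fits without 1 library (adjusted p between 0.0567 and 0.0925). Hand1 ranged from 10.3 to 86.2 (median 22.0) at 120 h and from 42.5 to 141 (median 85.1) at 144 h (log2 fold change 1.45 ± 0.24, adjusted p = 0.000303), with overlapping times. The atrial myosin light chain Myl4 ranged from 35.9 to 65.9 (median 57.0) at 120 h and from 68.0 to 188 (median 119) at 144 h (log2 fold change 1.12 ± 0.18, adjusted p = 0.0002), without overlap.

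Several endoderm, surface ectoderm, germ cell and pluripotency genes were higher at 144 h. Of 16 endoderm genes, 7 rose and none fell (median log2 fold change 0.49). Foxa2, the factor that defines definitive endoderm, ranged from 29.6 to 92.9 (median 51.9) at 120 h and from 49.6 to 199 (median 94.1) at 144 h, and its adjusted p of 0.0385 depended on single libraries. It lay between 0.0607 and 0.129 without replicate 1 or 3 of either clone at 120 h, replicate 2 of either clone at 144 h, or WT–emiRFP replicate 1 at 144 h, and 0.198 without replicate 1 in every group. Foxa2 did not pass with both clones summed (log2 fold change 0.91, adjusted p = 0.121). Nor did it pass in WT–mCherry (adjusted p = 0.175) or WT–emiRFP libraries (adjusted p = 0.0879) fitted alone. It passed without replicate 2 in every group (log2 fold change 0.85, adjusted p = 0.0267). It also passed with the replicate number as a block, a pairing across time that is not settled (0.89 ± 0.12, adjusted p = 3.95e-05). With that block 12 of the 16 endoderm genes rose and 1 fell, against 26.9% and 23.8% of all tested genes. Hnf4a, a factor of liver and gut, ranged from 18.5 to 46.5 (median 34.3) at 120 h and from 41.2 to 99.4 (median 64.4) at 144 h (log2 fold change 1.08 ± 0.23, adjusted p = 0.00163), with overlapping times. Replicate 2 was the highest of the 3 replicates in all 4 groups for 9 of the 16 endoderm genes and 6 of the 12 surface ectoderm genes, against 9.45% of all tested genes. The same held for 6 of the 20 haematoendothelial, 5 of the 20 cardiac and 4 of the 12 intermediate mesoderm genes. Without replicate 2, Hnf4a had a log2 fold change of 0.88 (adjusted p = 0.0117) and Krt18, a surface ectoderm gene, 1.19 (adjusted p = 7.45e-06). Of the surface ectoderm genes 6 rose and 2, Sfn and Grhl3, fell (median 0.39). Trp63, the defining factor of stratified epithelium, ranged from 10.3 to 20.8 (median 15.1) at 120 h and from 27.1 to 61.3 (median 45.8) at 144 h (log2 fold change 1.54 ± 0.20, adjusted p = 2.83e-05). Krt18, a keratin of simple epithelia, ranged from 659.7 to 1386 (median 1005) at 120 h and from 1427 to 3418 (median 2305) at 144 h (log2 fold change 1.15 ± 0.18, adjusted p = 0.000165). Neither overlapped between the times, and Grhl3, a factor of neural tube closure and epidermis, changed by -0.96 ± 0.09. Of 7 notochord and node genes Ccno and Nodal rose (28.6%) and Nog and Lefty2 fell (28.6%), against 23.4% and 19.8% of all tested genes. Noto had 24 reads at 120 h and 15 at 144 h and was not tested.

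Of 18 pluripotency genes, 11 rose and 3, Dnmt3b, Mixl1 and Wnt3, fell (median log2 fold change 0.27). Pou5f1, the core pluripotency factor, had normalised counts of 8264, 11910.3 and 8432 at 120 h and 9849, 9930.2 and 10283 at 144 h in WT–mCherry cells. In WT–emiRFP cells the counts were 9284, 11308 and 10647 at 120 h and 13717, 13304 and 13524 at 144 h (log2 fold change 0.22 ± 0.09, adjusted p = 0.0522). At 120 h replicate 2 was above replicates 1 and 3 in both clones, at 144 h WT–emiRFP libraries were above WT–mCherry libraries, and the times overlapped. Zfp42, a marker of the naive state, ranged from 10032 to 14350.0 (median 12356) at 120 h and from 12947 to 22251 (median 16488) at 144 h (log2 fold change 0.44 ± 0.06, adjusted p = 3.5e-05), also with overlap. Of 12 primordial germ cell genes, 8 rose and 1, Nanos3, fell (median log2 fold change 0.61). Prdm1, which specifies germ cells, ranged from 709 to 979.8 (median 846) at 120 h and from 1534 to 1861 (median 1819) at 144 h (log2 fold change 1.05 ± 0.07, adjusted p = 1.11e-07). Dazl, an RNA-binding protein of germ cells, ranged from 589 to 677 (median 624) at 120 h and from 1124 to 1678 (median 1324) at 144 h (log2 fold change 1.12 ± 0.08, adjusted p = 1.23e-07), both without overlap. Nanos3, an RNA-binding protein that protects germ cells, changed by -0.86 ± 0.13.

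Of 18 Wnt ligands 6 fell (33.3%) and 4, Wnt1, Wnt4, Wnt7a and Wnt7b, rose (22.2%), against 19.8% and 23.4% of all tested genes (median log2 fold change -0.04). The falls included the tail bud ligands Wnt5a, Wnt3a and Wnt5b and the primitive streak ligand Wnt8a (-1.52 ± 0.13). Wnt1, the ligand of the roof plate and midbrain, singled out after its values were seen, went from 11 reads over 6 libraries to 315. Of 19 Wnt feedback genes and targets 7 fell and 4 secreted factors, Dkk3, Sfrp1, Sfrp2 and Sfrp5, rose (median -0.26). Axin2, the common feedback inhibitor, ranged from 3851 to 4397 (median 4035) at 120 h and from 1562 to 1975 (median 1830.0) at 144 h (log2 fold change -1.17 ± 0.05, adjusted p = 1.18e-09). The secreted inhibitor Sfrp5 ranged from 62.8 to 194 (median 106) at 120 h and from 199.9 to 412 (median 315) at 144 h (log2 fold change 1.38 ± 0.26, adjusted p = 0.000715). Both were without overlap. Of 18 FGF ligands 7 fell and 6 rose (median -0.06), with Fgf8, Fgf17, Fgf18 and the clock-region ligand Fgf3 (-1.29 ± 0.19) lower and Fgf1 (1.17 ± 0.16) and Fgf5 (0.96 ± 0.18) higher.

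In the BMP list of 20 genes 10 rose and 5, Msx1, Bmper, Nog, Id2 and Bambi, fell (median log2 fold change 0.31). The ligand Bmp5 and the target Id4 changed by 1.41 ± 0.24 and 0.72 ± 0.12, and the homeobox target Msx1, which the caudal end also expresses, ranged from 657 to 1169.9 (median 881) at 120 h and from 116 to 229 (median 158) at 144 h (log2 fold change -2.49 ± 0.12, adjusted p = 2.8e-09). In the retinoic acid list of 16 genes 7 fell and 5, Aldh1a1, Aldh1a3, Rara, Crabp1 and Stra8, rose (median -0.27). Aldh1a2, which makes retinoic acid in somites, ranged from 1254 to 2549 (median 1835) at 120 h and from 334 to 812 (median 524) at 144 h (log2 fold change -1.85 ± 0.15, adjusted p = 5.9e-07). The binding protein Crabp1 ranged from 838 to 1603 (median 1142) at 120 h and from 1536 to 4832 (median 3389) at 144 h (log2 fold change 1.36 ± 0.15, adjusted p = 6.73e-06). The fall of Aldh1a2 was without overlap, whereas the ranges of Crabp1 overlapped. In the hedgehog list of 12 genes 4 rose (33.3%) and 3, Smo, Gli3 and Foxd1, fell (25.0%), against 23.4% and 19.8% of all tested genes (median 0.07). Those that rose included the direct targets Hhip (1.44 ± 0.11), Gli1 (0.81 ± 0.14) and Ptch1 (0.54 ± 0.05).

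Growth and cell cycle genes changed by small amounts. Of 25 genes of DNA replication and the G1/S transition 20 fell and none rose (median log2 fold change -0.19), including the replication clamp Pcna (-0.30 ± 0.04), the ribonucleotide reductase subunit Rrm2 (-0.29 ± 0.04) and the cyclin Ccne2 (-0.58 ± 0.10). Of 24 mitosis genes 7 rose (29.2%) and 1, Kif20a, fell (4.17%), against 23.4% and 19.8% of all tested genes (median 0.06). Prc1, a spindle midzone protein, was at 0.24 ± 0.04. Of 7 inhibitors of cyclin-dependent kinases 5, Cdkn1c and all 4 genes from Cdkn2a to Cdkn2d, rose and 1, Cdkn1a, fell (median 0.51). Cdkn1c, an inhibitor of differentiating cells, ranged from 992 to 1465 (median 1254) at 120 h and from 1264 to 3049 (median 1810.2) at 144 h (log2 fold change 0.57 ± 0.12, adjusted p = 0.00148). Cdkn1a, a p53 target, ranged from 2613 to 3673 (median 3379) at 120 h and from 2156 to 2912 (median 2509) at 144 h (log2 fold change -0.35 ± 0.07, adjusted p = 0.00103). The ranges of both overlapped. Of 25 genes of ribosome biogenesis and Myc 18 fell and none rose (median -0.17). Mycn ranged from 6630.4 to 7893 (median 7256) at 120 h and from 4698 to 5691 (median 5146) at 144 h (log2 fold change -0.49 ± 0.05, adjusted p = 1.02e-05) without overlap. Of 83 cytosolic ribosomal protein genes, which share reads with many pseudogenes, 2, Rplp0 and Rpl10, fell and 3, the germline copies Rpl39l and Rpl10l and the muscle copy Rpl3l, rose (median -0.01), with an adjusted p of 0.0538 for Rpl10 without WT–mCherry replicate 2 at 144 h. Of 28 p53 targets 13 fell and 5, Mdm2, Sesn1, Tnfrsf10b, Polk and Dglucy, rose (median -0.12), with Phlda3 at -0.48 ± 0.10 and Btg2 at -0.42 ± 0.05. Trp53 itself ranged from 16573 to 19153 (median 17496) at 120 h and from 15975 to 20019 (median 17854) at 144 h (log2 fold change 0.03 ± 0.05, adjusted p = 0.619).

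Of 28 glycolysis and hypoxia genes 17 rose and 3, Eno1, Ldha and Kdm3a, fell (median log2 fold change 0.18). Pfkp, a phosphofructokinase, ranged from 6192 to 8985 (median 7456) at 120 h and from 10363 to 19399 (median 13898) at 144 h (log2 fold change 0.91 ± 0.05, adjusted p = 2.08e-08). Hk1, the hexokinase of differentiated cells, ranged from 3080.2 to 3768 (median 3314) at 120 h and from 4849 to 5967 (median 5338) at 144 h (log2 fold change 0.66 ± 0.04, adjusted p = 2.46e-08), both without overlap. Replicate 2 was the highest in all 4 groups for 15 of these 28 genes. Without replicate 2, Pfkp and Hk1 had log2 fold changes of 0.95 and 0.70 (adjusted p = 1.97e-06 and 3.11e-06). Of 22 integrated stress response genes 13 fell and 4, Trib3, Slc7a3, Cebpb and Nupr1, rose (median -0.24), with the serine synthesis enzyme Psat1 ranging from 25013 to 29084 (median 26684) at 120 h and from 17701 to 19047 (median 18325) at 144 h (log2 fold change -0.54 ± 0.04, adjusted p = 2.94e-07). Of 24 genes of cholesterol and fatty acid synthesis 6 rose (25.0%) and 6 fell (25.0%), near the 23.4% and 19.8% of all tested genes (median 0.01). Scd1, a fatty acid desaturase, changed by 0.39 ± 0.05.

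Collagen genes changed chain by chain. Of 41 collagen chains 21 rose and 10 fell (median log2 fold change 0.33). Col3a1, the chain of stretchy connective tissue, had normalised counts of 103, 86.0 and 133 at 120 h and 1575, 1871 and 2399 at 144 h in WT–mCherry cells. In WT–emiRFP cells the counts were 81.1, 69.8 and 83.2 at 120 h and 805, 1039 and 529 at 144 h (log2 fold change 3.79 ± 0.21, adjusted p = 1.41e-08). Col15a1, a chain of basement membrane zones, ranged from 29.7 to 71.2 (median 39.7) at 120 h and from 176 to 271 (median 236) at 144 h (log2 fold change 2.37 ± 0.15, adjusted p = 5.95e-08). Col4a6, a basement membrane chain, ranged from 404 to 680.4 (median 513) at 120 h and from 96.5 to 295 (median 208) at 144 h (log2 fold change -1.45 ± 0.13, adjusted p = 9.73e-07). All 3 were without overlap. Of 28 other matrix genes 12 rose and 6 fell (median 0.16), with the thrombospondins Thbs1 and Thbs2 at 1.41 ± 0.22 and 1.39 ± 0.13 and the embryonic fibrillin Fbn2 at -1.28 ± 0.20. Of 18 imprinted genes 7 rose and 2, Plagl1 and Grb10, fell (median 0.11). Dlk1, an inhibitor of adipocyte differentiation, ranged from 267 to 394 (median 355) at 120 h and from 399 to 1712 (median 780.1) at 144 h (log2 fold change 1.25 ± 0.24, adjusted p = 0.000796). Grb10, an adaptor that restrains growth, changed by -0.54 ± 0.17 over both clones, with -1.002 (adjusted p = 9.17e-05) in WT–emiRFP libraries fitted alone and -0.02 (adjusted p = 0.952) in WT–mCherry libraries fitted alone. Its adjusted p was 0.0743 without replicate 1, 0.0545 without replicate 2 and between 0.0536 and 0.0555 without any 1 of the 3 WT–emiRFP libraries at 144 h.

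Fitted by clone, 4614 genes changed in WT–mCherry cells (24.1%), 2717 of them higher (14.2%) and 1897 lower (9.91%). In WT–emiRFP cells 6526 changed (34.1%), 3509 of them higher (18.3%) and 3017 lower (15.8%). A change in both with the same sign was found for 3414 genes, and 19 were called in both with opposite signs, all 19 higher in WT–mCherry and lower in WT–emiRFP cells. The test of the difference itself, the clone by time interaction, found 15 genes (0.0783%), 1 with a higher (0.00522%) and 14 with a lower (0.0731%) change in WT–emiRFP cells, with 2086 at an unadjusted p under 0.05. Since both clones of a replicate came from the same gastruloids, the test was also run with the gastruloids they shared as a block, and 1829 genes (9.55%) then passed, 480 higher (2.51%) and 1349 lower (7.05%) in WT–emiRFP cells. The count without the block depended on the replicate left out, with 0 genes by edgeR without replicate 1 (1255 at an unadjusted p under 0.05), 388 without replicate 2 and 0 without replicate 3 (1133).

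Among the 15 genes, the intermediate filament gene Vim had normalised counts of 4239, 3826 and 4592 at 120 h and 12214, 11749.6 and 13879.5 at 144 h in WT–mCherry cells. WT–emiRFP cells had 4197, 3646 and 4454 at 120 h and 6803, 5409 and 5123 at 144 h. It rose in both clones, by 1.58 ± 0.11 and 0.50 ± 0.11, with a difference of -1.08 ± 0.15 (adjusted p = 0.0192). Kdr, the VEGF receptor of endothelial and early mesodermal progenitors, had 748, 651 and 798 at 120 h and 823, 763 and 1118 at 144 h in WT–mCherry cells. WT–emiRFP cells had 1361, 1104 and 1461 at 120 h and 713, 637 and 658 at 144 h. Its change was 0.30 ± 0.14 in WT–mCherry and -0.97 ± 0.14 in WT–emiRFP cells (difference -1.26 ± 0.20, adjusted p = 0.0361). Twist1, a mesenchymal bHLH factor, differed likewise, with 0.11 ± 0.11 and -1.05 ± 0.11. Robo2, Rgs2, an inhibitor of G protein signalling, and the Wnt inhibitor Sfrp2 rose in both clones and less in WT–emiRFP cells, with differences of -1.36 ± 0.22, -1.16 ± 0.17 and -0.79 ± 0.11. Fgf17 fell by less in WT–emiRFP cells and was the 1 gene with a higher change there (0.91 ± 0.11, adjusted p = 0.014).

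Of the 19 genes with opposite signs, 4 were singled out after their values were seen, since they are transcription factors of mesenchyme and neural tissue. Zic1, a factor of dorsal neural tube and somite, changed by 0.79 ± 0.20 in WT–mCherry and -0.66 ± 0.21 in WT–emiRFP cells, Nr2f2 by 0.67 ± 0.21 and -0.62 ± 0.21, Meis1, a cofactor of Hox proteins, by 0.55 ± 0.18 and -0.57 ± 0.18, and Sox4 by 0.41 ± 0.13 and -0.39 ± 0.13. Of the 19, Zfp36l1 and Metrn passed the interaction test without the block, and all 19 passed it with the block. With the block, the lists with over 10 unequal members were the Hox genes (25 of 35, all lower in WT–emiRFP cells), collagens (18 of 41, 15 of them lower), somite genes (14 of 17, all lower), integrated stress response genes (12 of 22, 11 of them higher), caudal epiblast genes (12 of 21, 6 of them lower), spinal cord genes (11 of 18, all lower) and other matrix genes (11 of 28, 9 of them lower), against 7.05% of all tested genes lower and 2.51% higher.

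**Figure D5:**
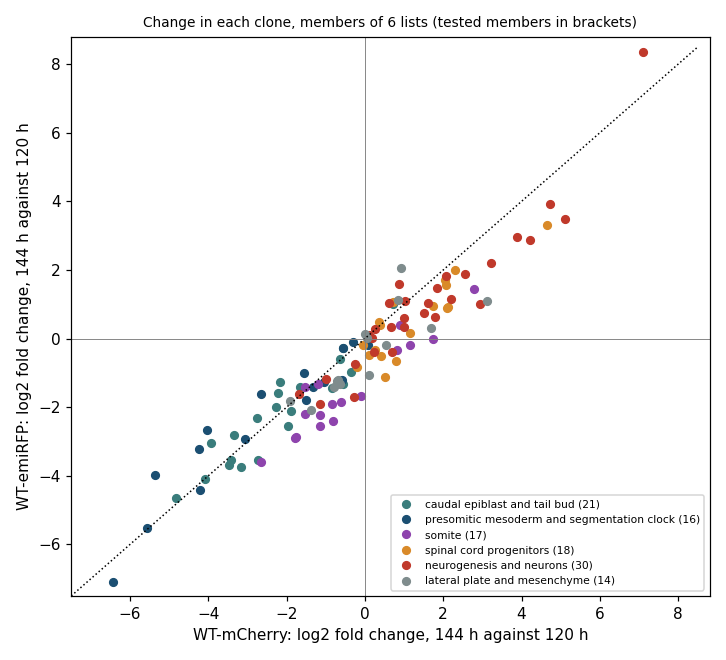
Log2 fold change from 120 h to 144 h in WT–emiRFP cells (y axis) against WT–mCherry cells (x axis) for the tested members of 6 gene lists, with the number of members in brackets and a dotted line where both changes are equal. Caudal epiblast and presomitic genes lie low on both axes, and most somite genes (purple) lie below the dotted line.

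The same time step was also measured in gastruloids that contained p53KO cells. In WT–mCherry cells of those gastruloids, 7364 of 18759 genes changed (39.3%), 3713 higher (19.8%) and 3651 lower (19.5%). Without replicate 1 the count was 4545 and without replicate 2 it was 4614. Of the 8058 genes that changed in WT+WT gastruloids and were tested there, 7747 (96.1%) had the same sign, 5568 were also called with the same sign and 28 were called with the other. The median of the caudal epiblast list was -2.29 beside p53KO cells, and Nkx1-2, Cdx2 and T changed by -3.19 ± 0.12, -2.87 ± 0.11 and -3.14 ± 0.12. The list medians beside p53KO cells and in WT–mCherry cells of WT+WT gastruloids were 0.23 and 1.01 for neurogenesis, 0.45 and 0.76 for spinal cord progenitors, -1.29 and -0.84 for somite and -1.09 and -0.57 for Hox genes, and these differences were not tested. In p53KO–emiRFP cells, 4873 of 19100 genes changed (25.5%), 2804 higher (14.7%) and 2069 lower (10.8%). The change differed from that of WT–emiRFP cells for 3663 genes (19.2%), with 2246 higher (11.8%) and 1417 lower (7.42%) in p53KO cells. That count was 1475, 2253 and 2400 without replicate 1, 2 and 3.

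Of the caudal genes, Cdx2, Nkx1-2 and T fell by less in p53KO–emiRFP cells of WT+p53KO gastruloids than in WT–emiRFP cells of WT+WT gastruloids. Genotype and neighbours both differ between these populations and cannot be told apart. Cdx2 changed by -1.28 ± 0.09 in p53KO cells and -4.10 ± 0.12 in WT–emiRFP cells, a difference of 2.82 ± 0.14 (adjusted p = 1.22e-08). For Nkx1-2 the values were -1.27 ± 0.09 and -4.65 ± 0.13 (difference 3.38 ± 0.14, adjusted p = 2.31e-09), and for T they were -2.10 ± 0.10 and -3.68 ± 0.18 (difference 1.58 ± 0.17, adjusted p = 1.51e-05). These 3 genes were named for their large fall in WT cells, whose WT–emiRFP libraries enter this test, so that the choice favours a smaller fall in p53KO cells. The median of the caudal list was -1.27 in p53KO cells against -2.11 in WT–emiRFP cells, and that of the somite list 0.64 against -1.86.

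From 96 h to 120 h, the step before, 10320 of 18714 genes changed in the same clones (55.1%), 5011 higher (26.8%) and 5309 lower (28.4%). These values share the 120 h libraries with those above, so that they are given side by side only. Nkx1-2 changed by -2.31 ± 0.07 in that step and -4.75 ± 0.09 in the next, Cdx2 by -1.62 ± 0.07 and -4.09 ± 0.08, and T by -3.77 ± 0.09 and -3.57 ± 0.13. Meox1 changed by 3.79 ± 0.13 and then -1.37 ± 0.19, Foxc2 by 1.39 ± 0.18 and -3.09 ± 0.20, and Hes7 by -2.56 ± 0.14 and -5.54 ± 0.17. Dbx1 changed by 5.90 ± 0.60 and 4.13 ± 0.31, and Pax6 by 1.75 ± 0.08 and 1.83 ± 0.10. For Hox genes the median of the list was -0.20 from 96 h to 120 h and -0.91 from 120 h to 144 h.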

How the data were processed

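RNA sequencing of sorted cells was taken as deposited. The authors trimmed reads with Trim Galore 0.6.7, aligned them to GRCm38.p6 with STAR 2.7.11b and deposited counts of uniquely mapped reads per gene. The strand setting of the count is not given in the sources used here, so that overlapping and antisense genes cannot be told apart. Counts of the 12 WT libraries of WT+WT gastruloids at 120 h and 144 h were tested with the quasi-likelihood test of edgeR 4.0.16 in R 4.3.3, with time and clone as terms, median-of-ratios size factors over all 69 libraries and the filterByExpr filter. P-values were adjusted by Benjamini-Hochberg with a threshold of 0.05. The script was tested on simulated data. DESeq2 1.42.0, other scalings, filters and designs and each replicate left out were alternatives.

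Replicates come from 3 separate experiments. Clones of the same number and time were taken as sorted from the same gastruloids, and their deviations from the group means correlated by 0.325 to 0.701 in 6 pairs over 14074 genes. The members, gene lists and comparisons were chosen with earlier results of these data known. Genes were named by rule, as the 12 largest rises and 12 largest falls with a log2 CPM of at least 2, shared in direction by all 6 pairs and without predicted genes or pseudogenes, up to 4 changed members per list with a log2 CPM of at least 0 and the largest member against its majority, up to 5 clone differences each way, all Hox genes, 3 checks of the sort and the defining marker of each list. Depth was 47397767 to 63367172 reads, so that counting error is small beside replicate spread except for genes with few reads. Values of some genes that the rule names are not reported here.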

Additional observations from a re-analysis of the deposited data

Results flagged for a closer look

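Groups held 3 replicates each, so that no library was tested as lying apart from its group. The results below are differences between groups under the same 120 h to 144 h contrast.

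Without a block, the change differed between the WT clones for 15 genes. With the gastruloids that the clones shared as a block, it differed for 1829 (9.55%). In fits by clone 19 genes were called in opposite directions, and of these Zfp36l1 and Metrn passed the test without the block. For the named genes that passed without the block, the WT–emiRFP change minus the WT–mCherry change was -1.36 for Robo2, -1.26 for Kdr, -1.16 for Twist1, -1.16 for Rgs2, -1.08 for Vim, -0.79 for Sfrp2 and 0.91 for Fgf17 on the log2 scale.

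The change differed between p53KO–emiRFP and WT–emiRFP cells for 3663 genes. These populations also had different neighbours, so that genotype and neighbour cannot be told apart. Of the 24 genes with the largest rises and falls in WT cells, 14 differed. On the log2 scale, the p53KO–emiRFP change minus the WT–emiRFP change was -1.24 for Col3a1, 0.85 for Evx1, 1.21 for Ednrb, 1.52 for Sp5, 1.58 for T, 2.09 for Sema3d and 2.40 for Rspo3. It was 2.82 for Cdx2, 2.86 for Acta2, 2.90 for Fgf18, 2.95 for Cdx4, 3.23 for Kif26b, 3.38 for Nkx1-2 and 3.77 for Stum. The other 10, C1qtnf3, Chl1, Dbx1, Megf10, Pou3f3, Ndnf, Pou3f2, Robo2, Krt7 and Tbx6, did not pass, with differences between -0.98 and 1.03. These 24 genes were named for a large change in WT cells, whose WT–emiRFP libraries enter the difference, so that the choice favours a smaller change in p53KO cells. In WT–emiRFP cells the genes that differed with a positive sign fell, except for Ednrb and Sema3d, which rose.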

How the results depend on the processing

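The count of 8263 changed genes was 3727 in WT–mCherry libraries alone, 1402 with a 2-fold minimum, and between 4874 and 8975 when a replicate or a single library was left out. With the replicate block it was 9709 (5146 higher and 4563 lower), with DESeq2 8578, and with TMM scaling 8318. With both clones of the same gastruloids summed, 3 samples against 3, it was 6179, and 10 named genes lost their call. The sources used here do not say that a replicate number marks the same experiment at both times. Across time, all 12 pairs of the same number correlated positively (0.0594 to 0.616) against 5 of 24 pairs of different numbers, and 10 of the 12 were over the 0.1 asked of every pair, so that whether the numbers pair the samples is not settled and the block is given as an alternative. Each of the 12 libraries correlated best with one of its own number when the other clone at the same time was included, but WT–mCherry replicate 1 correlated best with replicate 3 among libraries of its clone at the other time (0.147 and 0.217). The clone difference of 15 genes was 27 with TMM scaling, 881 without the filter on low counts, 590 with DESeq2, and between 0 and 388 with a replicate left out. It was 1829 with the gastruloids that the clones shared within a time as a block, which is not the replicate block across time. The counts of 7364 genes beside p53KO cells and 3663 genes in the p53KO difference ranged from 4545 to 6307 and from 1475 to 2400 with a replicate left out. With the replicate block, which called 50.7% of all tested genes, 13 of 16 endoderm genes, 10 of 83 ribosomal protein genes and 3 of 13 RNA quality genes changed. The sign reversed in WT–mCherry libraries alone for Twist1 (0.11, adjusted p = 0.51) and Hoxc9 (0.38, adjusted p = 0.0441), and for Kdr (0.30), Hoxa6 (0.11) and Trp53 (-0.05), which passed neither there nor over both clones. The cause of these shifts was not tested. Of 204 named genes that passed, 196 passed in all 12 fits without 1 library. The call was lost without a whole replicate for Eya1, Pax2, Mest, Cdkn2b, Cebpb, Dglucy, Ccno, Nodal, Ldha, Kif20a, Foxa2, Grb10, Twist1, Hoxc5, Hoxd13, Wnt3 and Rplp0, among others.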

Other observations

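The imprinted genes H19 and Grb10 differed in mean level between the WT clones at both times, and this difference was not tested. H19, an imprinted non-coding RNA, had mean normalised counts of 32043 at 120 h and 47000 at 144 h in WT–mCherry cells against 4540 and 7180 in WT–emiRFP cells. The same order held in the stem cells before aggregation, with 17061 in WT–mCherry and 1712 in WT–emiRFP cells. For Grb10 the order was the opposite.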
